A study of Mus musculus with 72 samples.

Results

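The E2f transcription factors and the pocket proteins Rbl1 and Rbl2 were followed in the blood of irradiated mice. The 10 genes are E2f1 to E2f8, Rbl1 and Rbl2, out of 31093 gene names on the array. They were found by the gene name that the array files give, and each is represented by the probe that was brightest over all arrays. All 10 were detected and were tested among 16074 detected genes. Male C57BL/6 mice, 8 to 10 weeks old and with no engineered allele in the labels, received 0.25 or 1 Gy of neutrons or 1 or 4 Gy of x-rays over the whole body. Controls of days 1 and 7 were sham-irradiated per the methods, while the day 3 arrays carry only the word control. The neutron beam also carries gamma rays, which limits these groups as a model of neutrons alone. Blood was drawn 1, 3 or 7 days later, and its RNA was hybridized to 1 one-colour array per mouse.

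The 72 arrays fall into 13 groups. Controls numbered 5 mice on day 1, 5 on day 3 and 6 on day 7, and the 0.25 Gy neutron groups 6, 6 and 5 mice on those days. The 1 Gy neutron groups had 6 mice each on days 1 and 7. X-rays at 1 Gy were given to 6, 5 and 5 mice of days 1, 3 and 7, and x-rays at 4 Gy to 5 and 6 mice of days 1 and 7. The exposures of a day were all compared with the same control mice, so their differences are not independent of each other.

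E2f proteins bind DNA together with a partner of the Tfdp (DP) family and control genes of DNA replication and the cell cycle. The pocket proteins, Rb1 and its relatives Rbl1 and Rbl2, bind E2f proteins and hold these genes silent until cyclin-dependent kinases phosphorylate them. E2f1, E2f2 and E2f3 are known as activators, E2f4 and E2f5 work mainly as repressors with a pocket protein, and E2f6, E2f7 and E2f8 repress without one. Rbl1 and Rbl2 also sit in the DREAM complex, which keeps cell cycle genes silent in resting cells. Most white cells of the blood are resting, while red cell precursors divide and mature in a program in which E2f2 has a known role.

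Values are log2 levels of the background-corrected intensity of a probe, relative to the median of the detected probes of the same array, so that 0 is the level of a middling probe. Levels of different genes come from different probes and are not compared. Blood is a mixture of cells, and in such samples fewer cells of a type and less RNA per cell cannot be told apart. Of the markers listed for blood cells, 13 of 14 erythroid, 6 of 7 B cell, 7 of 7 T cell and 6 of 7 neutrophil genes were detected. So were 5 of 10 hepatocyte markers, whose mean level ran from -0.42 to 7.11 over the day 1 controls, from 7.81 to 8.88 in the 4 Gy x-ray mice of that day, and from -4.44 to -2.27 over the day 7 controls. On day 7 this level ran from -4.70 to 7.23 with 4 Gy of x-rays and from -3.50 to 5.26 with 1 Gy of x-rays. The 1 Gy neutron mice of day 7 had -2.80 to 3.46 and the 0.25 Gy neutron mice -2.84 to 1.04. The share of spots well above background was 40.2 to 67.3% per array. It was lowest in the 1 Gy neutron mice of day 7 (40.2 to 50.3%), where the median intensity of detected probes was 71.4 to 118 against 324 to 463 in the controls of that day.

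Where a result turns on a probe, its letters are shown. E2f2 has a single probe, whereas E2f7 and Rbl1 have 2 each, whose differences are set side by side further on. The first 30 of the 60 bases are given in lower case as the array files list them. The E2f2 probe lies at chr4:135750562-135750621 on the plus strand of mm9, the build that the files name. The E2f7 probes lie at chr10:110219255-110219314 and chr10:110224331-110224390 on the plus strand, the first being the brighter, and the Rbl1 probes at chr2:156972143-156972202 and chr2:157000761-157000820 on the minus strand, again with the brighter first.
E2f2: aaccttttgacatatgtgacctcgtcgtct
E2f7, brighter probe: gttaaatggttttaacatggttttaccagg
E2f7, dimmer probe: ctacttggaacgctactactacgtgtaaac
Rbl1, brighter probe: acactggaggtttagccttctgaagaatca
Rbl1, dimmer probe: ccgagaggaattggaggaggggaaaacttg

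Several E2f genes are known to be regulated by E2f proteins themselves, so the promoters of the family were searched for the letters TTTCGCGC, TTTGGCGC, TTTCCCGC and TTTGCCGC on both strands. Promoters were taken from RefSeq (GRCm38.p6), 250 bases before to 50 after each start, and 8 of the 10 genes had 10 promoters there. Of these, 4 held a motif, in E2f2, E2f3, E2f7 and Rbl1. Among all 32851 promoters of this length, 744 (2.26%) held one. A match is a description of these letters and not a binding site shown here. In the next lines, 30 bases around each match are given on the strand of the gene, with the motif or its complement in capitals.
E2f2, plus strand, chr4:136172294-136172323, motif from base 40 after the start: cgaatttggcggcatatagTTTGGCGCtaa
E2f3, minus strand, chr13:29986056-29986085, motif from base -11: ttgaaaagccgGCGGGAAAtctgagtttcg
E2f7, plus strand, chr10:110745230-110745259, motif from base -198: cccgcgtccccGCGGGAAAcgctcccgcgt
Rbl1, minus strand, chr2:157204534-157204563, motif from base -18: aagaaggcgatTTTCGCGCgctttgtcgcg

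Each exposure was compared with the controls of its day by limma, 2-sided. A member counts as called where p was below 0.001 and the p adjusted over all 16074 genes was below 0.05. Of 100 pairs of gene and comparison, 15 were called, 7 higher and 8 lower than the controls. E2f2 alone gave 6 of them. E2f3, E2f6 and Rbl2 were not called in any of these fits, though alternatives named with each gene gave them calls.

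**Figure D1:**
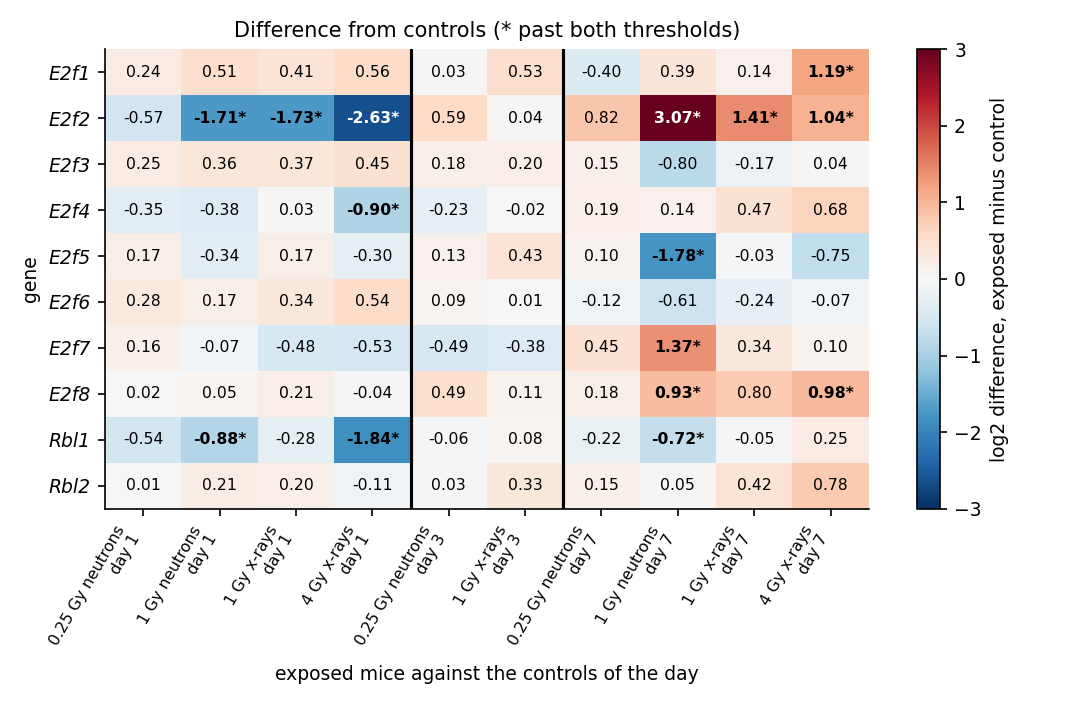
Log2 difference of each of the 10 genes (rows) between exposed mice and the controls of the day (columns, ordered by day), with the value in each cell and an asterisk where it passed both thresholds. E2f2 runs from -2.63 on day 1 with 4 Gy of x-rays to 3.07 on day 7 with 1 Gy of neutrons, and no cell of day 3 is marked.

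On day 1, all 6 calls were falls. With 0.25 Gy of neutrons none of the 10 was called and 1 had an unadjusted p under 0.05, while 0.00622% of all genes tested were called. With 1 Gy of neutrons 2 fell (16.4% of all genes were called, 10.7% lower), with 1 Gy of x-rays 1 fell (6.48%, 3.81% lower) and with 4 Gy of x-rays 3 fell (29.3%, 16.6% lower). On day 3, none was called after either exposure, 0.25 Gy of neutrons (1.54% of all genes) or 1 Gy of x-rays (1.57%), and none had an unadjusted p under 0.05 there. Day 7 gave 0 of 10 with 0.25 Gy of neutrons (0.579%), where 2 had an unadjusted p under 0.05. It gave 3 rises and 2 falls with 1 Gy of neutrons (36.3%, 18.5% higher and 17.8% lower), where centring on spike-in spots turned the split to 0 rises and 6 falls. It gave 1 rise with 1 Gy of x-rays (3.74%, 2.64% higher) and 3 rises with 4 Gy of x-rays (15.8%, 7.71% higher). Beside these shares the counts are read gene by gene, not as a result about the family.

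E2f2, one of the activators, fell on day 1 and rose on day 7. Its level in the 5 controls of day 1 was 5.81, 5.87, 5.51, 6.35 and 6.44. In the 6 mice given 1 Gy of neutrons it was 3.38 at the lowest, 4.11 in the median and 5.47 at the highest, and in those given 1 Gy of x-rays 3.78, 4.00 and 5.15. The 5 mice given 4 Gy of x-rays had 3.80, 2.96, 2.24, 4.26 and 3.59. Every mouse of these 3 groups lay below every control mouse. The fall was 3.28-fold with 1 Gy of neutrons (log2 difference -1.71 ± 0.37 SE, adjusted p = 0.00443), 3.33-fold with 1 Gy of x-rays (-1.73 ± 0.28, adjusted p = 0.00329) and 6.17-fold with 4 Gy of x-rays (-2.63 ± 0.35, adjusted p = 0.000159). In mice given 0.25 Gy of neutrons the levels ran from 4.87 to 5.96 with a median of 5.47 and overlapped the controls (-0.57 ± 0.25, adjusted p = 0.308). For 1 Gy of neutrons the call was lost without control mouse 1, 2, 4 or 5 or exposed mouse 1, 3, 5 or 6, with differences of -1.95 to -1.53 over all 11 such fits. Within the scan date that held 4 exposed and 5 control mice it was lost as well (-1.49 ± 0.39, adjusted p = 0.0217).

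**Figure D2:**
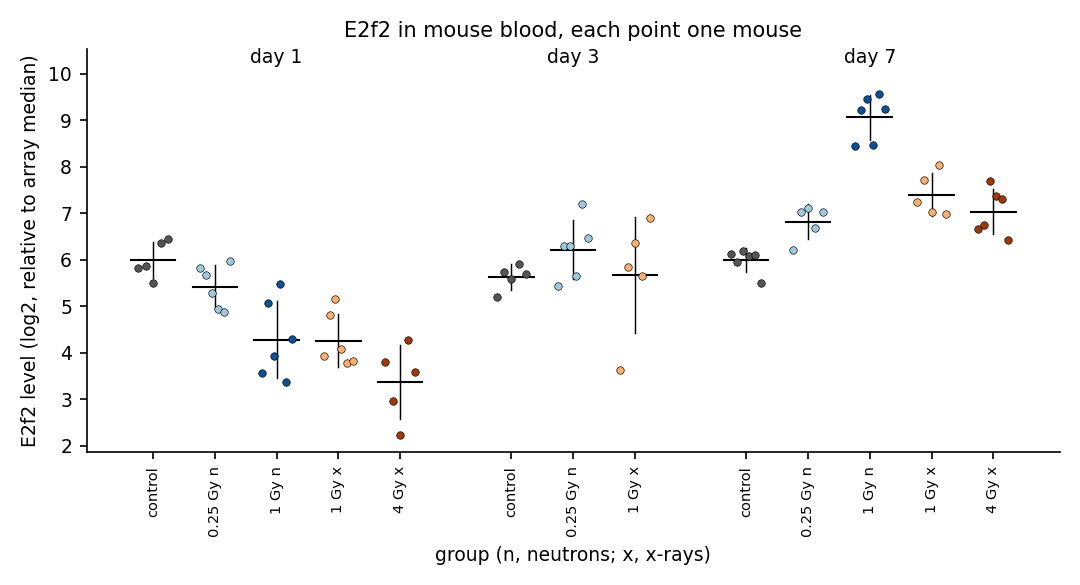
E2f2 level (log2, relative to the array median) in each mouse of the 13 groups, with the group mean (horizontal bar) and SD (vertical bar). The 3 higher exposures of day 1 sit at 2.24 to 5.47, below all controls of the day, and the 6 mice of day 7 given 1 Gy of neutrons sit at 8.45 to 9.56, above all others.

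On day 3 the E2f2 levels of both exposed groups overlapped the controls, which had 5.19, 5.74, 5.59, 5.91 and 5.70. With 0.25 Gy of neutrons they ran from 5.42 to 7.19 with a median of 6.28 (0.59 ± 0.28, adjusted p = 0.225). The 5 mice given 1 Gy of x-rays had 3.62, 5.83, 6.36, 5.64 and 6.89 (0.04 ± 0.51, adjusted p = 0.977). Mouse 1 of this group lay far below the others, and without it the difference was 0.55 ± 0.26 (adjusted p = 0.217).

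By day 7 E2f2 stood above the controls, which had 5.49 at the lowest, 6.09 in the median and 6.19 at the highest. The 6 mice given 1 Gy of neutrons ran from 8.45 to 9.56 with a median of 9.22, those given 4 Gy of x-rays from 6.43 to 7.70 with a median of 7.02, and the 5 mice given 1 Gy of x-rays had 7.23, 7.71, 7.02, 8.03 and 6.98. No mouse of these groups overlapped the controls. The rise was 8.42-fold with 1 Gy of neutrons (3.07 ± 0.22, adjusted p = 5.03e-07), 2.65-fold with 1 Gy of x-rays (1.41 ± 0.21, adjusted p = 0.00403) and 2.06-fold with 4 Gy of x-rays (1.04 ± 0.22, adjusted p = 0.00301). The 5 mice given 0.25 Gy of neutrons had 6.22, 7.03, 7.11, 6.68 and 7.03, also above every control. Their 1.77-fold difference (0.82 ± 0.18) missed the threshold (adjusted p = 0.0605) and passed it without exposed mouse 1 (0.97 ± 0.16, adjusted p = 0.0373). Before centring, the E2f2 intensity was 16300 to 31764 (median 18868) in these mice and 20811 to 26445 (median 22302) in the controls. Centring on spike-in spots put the median of all genes at -1.15 in this comparison.

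No x-ray array of days 1 and 7 shared a scan date with the controls of its day. For 4 Gy of x-rays on day 7, all on 1 date, scan date and group cannot be told apart, which holds for E2f1 and E2f8 as well, and the E2f2 call there was lost without exposed mouse 4 or 5. With the scan date as a random block, E2f2 kept its calls for x-rays at 1 Gy on day 1 (-1.66 ± 0.34, adjusted p = 0.0413) and day 7 (1.38 ± 0.18, adjusted p = 0.00101) and at 4 Gy on day 1 (-2.65 ± 0.29, adjusted p = 2.22e-05). The controls of each of these days were all on 1 date, without an x-ray array of that day. This block therefore cannot tell a shift of that date from the exposure. With 1 Gy of neutrons on day 7, 1 of 6 exposed arrays shared the scan date of the controls, and the difference with the scan date as a block was 2.46 ± 0.38 (adjusted p = 0.0019). Centring the arrays on their spike-in spots in place of the detected probes ended the day 7 calls for 1 Gy of neutrons (0.97 ± 0.39, adjusted p = 0.0285) and 1 Gy of x-rays (0.38 ± 0.45, adjusted p = 0.445). That scaling put the median of all genes at -2.15 and -1.06 in these comparisons.

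To ask whether an exposure acted differently on the 2 days, the day 1 difference from controls was subtracted from the day 7 difference and tested. Of 40 pairs of gene and exposure, 8 were called. They were 1 rise for 0.25 Gy of neutrons (0.753% of all genes were called, 0.715% higher), 1 rise and 1 fall for 1 Gy of neutrons (24.1%, 16.2% higher and 7.96% lower), 1 rise for 1 Gy of x-rays (7.2%, 5.05% higher) and 4 rises for 4 Gy of x-rays (19.8%, 11.3% higher). E2f2 was called in all 4 exposures, with 1.40 ± 0.32 for 0.25 Gy of neutrons (adjusted p = 0.0453), 4.79 ± 0.43 for 1 Gy of neutrons (adjusted p = 5.15e-08), 3.14 ± 0.36 for 1 Gy of x-rays (adjusted p = 8.95e-06) and 3.67 ± 0.41 for 4 Gy of x-rays (adjusted p = 2e-06). The 4 tests share the control mice of both days.

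**Figure D3:**
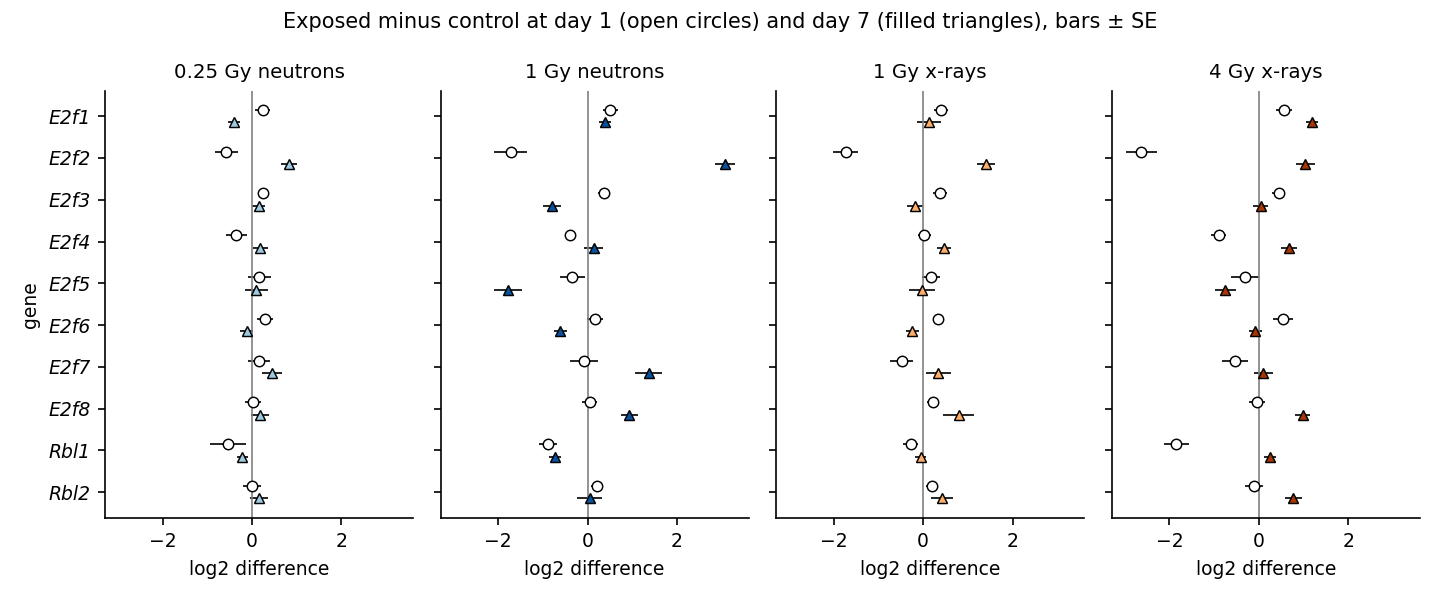
Log2 difference from the controls of the day for each gene on day 1 and day 7, ± SE, in 1 panel per exposure. E2f2 lies left of 0 on day 1 and right of 0 on day 7 in all 4 panels.

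E2f1, another activator, was called in 1 comparison. Its day 7 level in the controls was -1.85 to -1.13 with a median of -1.48, and with 4 Gy of x-rays -0.59 to -0.09 with a median of -0.25. All 6 exposed mice stood above all 6 controls, and the rise was 2.28-fold (1.19 ± 0.13, adjusted p = 4.44e-05). This call held under all 14 alternatives, with differences of 0.83 to 1.41. In the 1 Gy neutron mice E2f1 ran from -1.22 to -0.87 (median -1.10) and overlapped the controls (0.39 ± 0.13, adjusted p = 0.0219). The 5 mice given 1 Gy of x-rays had -1.25, -1.51, -1.98, -1.70 and -0.26, so that mouse 5 alone stood in the range seen with 4 Gy (0.14 ± 0.27 with it, -0.13 ± 0.17 without it). Those given 0.25 Gy of neutrons had -1.81, -1.82, -2.06, -1.60 and -2.12 (-0.40 ± 0.14, adjusted p = 0.132).

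On day 1, E2f1 was -2.46, -1.88, -2.39, -1.97 and -2.43 in the controls. All 5 mice given 4 Gy of x-rays lay above these, at -1.74, -1.54, -1.40, -1.87 and -1.77 (0.56 ± 0.18, adjusted p = 0.0176), without reaching an unadjusted p below 0.001. The other exposures of day 1 differed from the controls by 0.24 to 0.51, and the 2 of day 3 by 0.03 and 0.53. In the 1 Gy x-ray mice of day 3, mouse 1 had 0.08 against -1.82 to -1.18 in the other 4, and without it the difference was 0.20 ± 0.24.

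E2f1 was also the 1 member that differed between controls, being 0.75 ± 0.16 higher on day 7 than on day 1 (adjusted p = 0.0197, 6 of 6 mice above all 5), where 4.37% of all genes were called, 2.56% higher. E2f4 was lower in all 6 controls of day 7 than in those of day 1 without passing the unadjusted threshold (-0.56 ± 0.15, adjusted p = 0.035). No member was called between the controls of days 3 and 1 (0% of all genes) or of days 7 and 3 (2.23%), where E2f1 in the first pair and E2f2 and E2f4 in the second had an unadjusted p under 0.05. The single call between controls was lost without day 1 mouse 1, 3 or 5, without any 1 of day 7 mice 2 to 6, and under 3 of the 10 other alternatives. The controls of each day were all on 1 scan date, a different one for each day. Day and scan date therefore cannot be told apart between controls.

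E2f3, which completes the activators, passed both thresholds in no comparison with controls. In the 1 Gy neutron mice of day 7 it ran from -2.34 to -1.29 with a median of -1.92, and in the controls from -1.50 to -0.79 with a median of -1.01, so that 4 of 6 exposed mice lay below all controls (-0.80 ± 0.21, adjusted p = 0.00472, unadjusted p above 0.001). It was called in 1 fit of all groups, with dim spots left out (-1.22), with spike-in centring (-2.90) and without exposed mouse 4 (-0.91). Its change between the days was called for 1 Gy of neutrons (-1.15 ± 0.24, adjusted p = 0.000531), from 0.36 on day 1 to -0.80 on day 7. A dimmer E2f3 probe went the other way on day 7 (0.90 ± 0.37), but it was well above background on 0 of 6 exposed and 3 of 6 control arrays. On day 1 all mice of the groups given neutrons at 1 Gy and x-rays at 4 Gy lay above all controls, by 0.36 ± 0.11 (adjusted p = 0.0266) and 0.45 ± 0.15 (adjusted p = 0.0268). In the other 7 comparisons E2f3 differed from the controls by -0.17 to 0.37.

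Among the repressors, E2f4 fell on day 1 with 4 Gy of x-rays. The controls had -0.51, -0.60, -0.74, -0.71 and -0.37, and the exposed mice -1.17, -1.70, -1.73, -1.38 and -1.43, with no overlap. The fall was 1.86-fold (-0.90 ± 0.16, adjusted p = 0.000875). It missed the threshold with normexp background correction (-0.34, adjusted p = 0.283), over the arrays of like hepatocyte marker level, 5 exposed and 3 control (-0.83 ± 0.22, adjusted p = 0.0146), and with spike-in centring (-0.99 ± 0.30, adjusted p = 0.012). By day 7 the 6 mice of this exposure lay above all controls (-0.70 to 0.19 against -1.68 to -0.86), a difference of 0.68 ± 0.18 (adjusted p = 0.012) that missed the unadjusted threshold and passed it in 1 fit of all groups. The change between the days was called (1.57 ± 0.24, adjusted p = 5.18e-05). All 6 mice of day 1 given 1 Gy of neutrons lay below the controls too, at -1.11 to -0.88 (-0.38 ± 0.12, adjusted p = 0.0213). Elsewhere E2f4 differed by -0.35 to 0.47. On 1 array of day 1 with 1 Gy of x-rays its value is missing because of a flag, and that group has 5 values in these fits.

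E2f5 had its lowest mean in the 1 Gy neutron mice of day 7. Their level ran from -5.02 to -3.34 with a median of -4.81, and that of the controls from -3.61 to -2.29 with a median of -2.56, so that 5 of 6 exposed mice lay below all controls. The spot stood well above background on 0 of 6 exposed arrays (intensities of 2.55 to 10.1, against 28.4 to 87.3 in the controls), so the fall has only a bound, at least 3.42-fold (adjusted p = 0.000299). The bound sets the mean of the controls against the lowest signal among probes well above background on each exposed array, or the spot's own where higher. The call was lost with the scan date as a block (-2.20 ± 0.60, adjusted p = 0.0158), and the sign turned with normexp background correction with an offset of 50 (0.96 ± 0.33, adjusted p = 0.0261). With 4 Gy of x-rays on day 7 it was -3.81 to -3.04 (-0.75 ± 0.23, adjusted p = 0.0236), called only without control mouse 2 (-0.92), and in the other 8 comparisons it differed by -0.34 to 0.43.

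E2f6, which acts with Polycomb proteins, was not called against any controls. The 6 mice of day 7 given 1 Gy of neutrons ran from -0.58 to -0.0015 with a median of -0.49, 5 of them below all controls (-0.14 to 0.49), a difference of -0.61 ± 0.15 (adjusted p = 0.00325) that missed the unadjusted threshold. It was called in 1 fit of all groups (adjusted p = 0.00126), with dim spots left out (-1.15, adjusted p = 4.71e-05), with spike-in centring (-2.71) and without control mouse 2 (-0.68) or exposed mouse 4 (-0.70). In the other comparisons it differed by -0.24 to 0.54. Of the partners of E2f6 in its Polycomb complex, 6 were tested, and in those mice Pcgf6 (-1.64), Rnf2 (-0.99) and Cbx3 (-0.60) fell while Max rose (1.16). Pcgf6 fell also on day 1 with 1 Gy of neutrons (-0.82) and with 4 Gy of x-rays (-1.16), where Rnf2 fell with it (-0.99), and on day 7 with 4 Gy of x-rays (-0.93).

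E2f8, a repressor that needs no Tfdp partner, rose on day 7. The controls ran from -2.23 to -1.41 with a median of -1.86. With 1 Gy of neutrons the levels were -1.37 to -0.44 (median -0.92), and with 4 Gy of x-rays -1.14 to -0.54 (median -0.92). All 12 of these mice stood above all 6 controls. The rise was 1.91-fold (0.93 ± 0.19, adjusted p = 0.000819) and 1.98-fold (0.98 ± 0.18, adjusted p = 0.00126). The 5 mice given 1 Gy of x-rays had -1.45, -1.62, -1.21, -1.43 and 0.49, and the difference of 0.80 ± 0.35 (adjusted p = 0.177) came to 0.41 ± 0.18 without mouse 5. In the other 7 comparisons E2f8 differed by -0.04 to 0.49, and its change between the days was called for 4 Gy of x-rays (1.03 ± 0.25, adjusted p = 0.00274). For 1 Gy of neutrons the call was lost under 6 of 15 alternatives, among them the scan date as a block (0.90 ± 0.33, adjusted p = 0.0488) and dim spots left out (0.40 ± 0.19), and it turned to -1.17 ± 0.49 with spike-in centring, where the median of all genes was -2.15. For 4 Gy of x-rays it was lost with normexp (0.63 ± 0.26) and with spike-in centring (1.20 ± 0.38, adjusted p = 0.0526). Before centring, the E2f8 intensity was 35.1 to 75.2 with 1 Gy of neutrons and 73.5 to 159 in the day 7 controls. With 4 Gy of x-rays on day 7 it was 225 to 588.

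E2f7, the closest relative of E2f8, gave a rise that its 2 probes did not share. With the brighter probe the controls of day 7 ran from -3.38 to -2.06 with a median of -3.17, and the mice given 1 Gy of neutrons from -2.31 to -0.55 with a median of -1.72, 4 of 6 above all controls (2.58-fold, 1.37 ± 0.30, adjusted p = 0.00168). The intensity itself was not higher, at 20.1 to 61.7 on the exposed and 36.8 to 83.0 on the control arrays, while the array medians differed as given above. With spike-in centring the difference was -0.73 ± 0.38 (adjusted p = 0.0775). The call was lost under 7 of 15 alternatives in all, and without any 1 of control mice 1, 3, 4, 5 and 6 or exposed mice 1 and 5.

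The dimmer E2f7 probe gave -0.16 ± 0.37 there and was well above background on 0 of 6 exposed arrays. It rose instead with 4 Gy of x-rays on day 7 (1.77 ± 0.31, adjusted p = 0.00253 over all probes), where it was well above background on 6 of 6 exposed and 4 of 6 control arrays and the brighter probe gave 0.10 ± 0.22 in the same fit. It was also called on day 1 with 1 Gy of x-rays (1.56 ± 0.27, adjusted p = 0.0132), but with only 3 of 6 exposed and 0 of 5 control arrays well above background. In the other 9 comparisons the brighter probe gave -0.53 to 0.45, without a call.

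**Figure D4:**
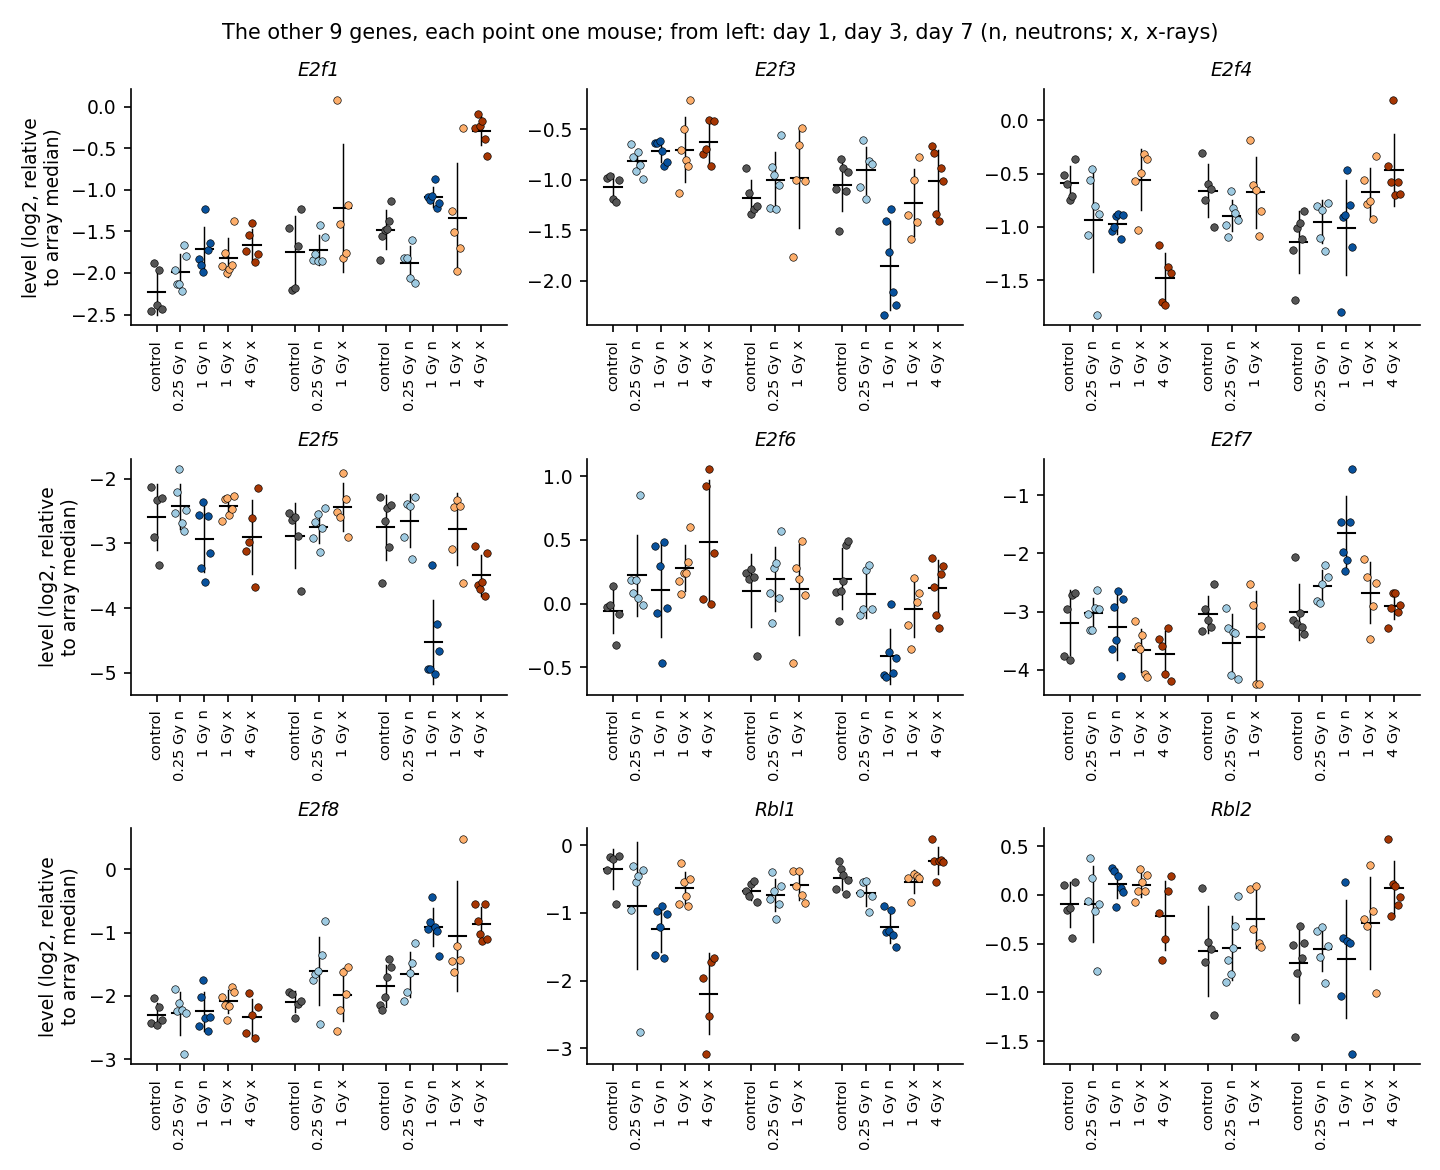
Level (log2, relative to the array median) of the other 9 genes in each mouse, with the group mean (horizontal bar) and SD (vertical bar), from day 1 at the left to day 7 at the right. E2f1 and E2f8 have their highest means on day 7 with 4 Gy of x-rays (-0.29 and -0.86), Rbl1 its lowest on day 1 with 4 Gy of x-rays (-2.19) and E2f5 its lowest on day 7 with 1 Gy of neutrons (-4.53).

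Rbl1, the pocket protein p107, fell on day 1. The controls had -0.37, -0.17, -0.20, -0.87 and -0.16, and the mice given 4 Gy of x-rays -1.97, -3.08, -2.52, -1.73 and -1.66. In the 1 Gy neutron mice the range was -1.67 to -0.90 with a median of -1.11. Neither group overlapped the controls, and the fall was 3.58-fold with 4 Gy of x-rays (-1.84 ± 0.28, adjusted p = 0.000322) and 1.84-fold with 1 Gy of neutrons (-0.88 ± 0.20, adjusted p = 0.00507). In a fit over all probes, the dimmer Rbl1 probe gave -0.93 ± 0.27 for 4 Gy of x-rays, not called, where the brighter was called. For 1 Gy of neutrons the dimmer gave -0.93 ± 0.25 and the brighter -0.88 ± 0.21, and neither was called in that fit. The call for 4 Gy of x-rays was lost with normexp background correction (-0.65, adjusted p = 0.0787). In mice given 1 Gy of x-rays the range was -0.89 to -0.27 and overlapped the controls (-0.28 ± 0.17, adjusted p = 0.261). With 0.25 Gy of neutrons 5 of 6 mice had -0.95 to -0.30 and mouse 5 had -2.76 (-0.54 ± 0.40 with it, -0.17 ± 0.17 without it). The call for 1 Gy of neutrons was lost under 9 of 16 alternatives, among them the fit within the scan date shared by both groups (-0.83 ± 0.21, adjusted p = 0.0201), and without control mouse 1, 2, 3 or 5 or exposed mouse 1, 3, 5 or 6.

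On day 7, Rbl1 was -1.50 to -0.90 (median -1.27) with 1 Gy of neutrons and -0.72 to -0.23 (median -0.48) in the controls, again without overlap (1.65-fold lower, -0.72 ± 0.14, adjusted p = 0.000667). The call was lost under 5 of 15 alternatives, among them the scan date as a block (-0.42 ± 0.24, adjusted p = 0.18) and normexp background correction (-0.05 ± 0.15). The dimmer probe gave 0.08 ± 0.34 with 1 of 6 exposed arrays well above background. The other exposures of day 7 differed from the controls by -0.22 to 0.25, and those of day 3 by -0.06 and 0.08. The change between the days was called for 4 Gy of x-rays (2.09 ± 0.30, adjusted p = 2.24e-05), from -1.84 on day 1 to 0.25 on day 7.

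Rbl2, the pocket protein p130 of resting cells, was called in no comparison as fitted here. On day 7 all 6 mice given 4 Gy of x-rays, at -0.22 to 0.58 with a median of 0.04, stood above all controls, at -1.46 to -0.32 with a median of -0.58. The 1.71-fold difference (0.78 ± 0.19, adjusted p = 0.00872) missed the unadjusted threshold and passed it in 1 fit of all groups (adjusted p = 0.00285). In the other 9 comparisons Rbl2 differed by -0.11 to 0.42.

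The exposures were also set against each other at matched days, in 8 comparisons without the controls. Of 80 pairs of gene and comparison, 13 were called. Neutrons and x-rays at the same 1 Gy differed on day 7 in 3 members (20.1% of all genes were called, 13.1% higher and 6.99% lower with neutrons): E2f2 was higher with neutrons (1.67 ± 0.27, adjusted p = 0.000978, 6 of 6 mice above all 5), and E2f5 (at least 3.35-fold, adjusted p = 0.00195) and Rbl1 (-0.67 ± 0.15, adjusted p = 0.00414) were lower. Against 4 Gy of x-rays, 4 members differed (37.4%, 22.7% higher and 14.7% lower with neutrons): E2f2 (2.03 ± 0.26, adjusted p = 2.58e-05) and E2f7 (1.26 ± 0.26, adjusted p = 0.000872) were higher with 1 Gy of neutrons, and E2f1 (-0.80 ± 0.12, adjusted p = 0.000103) and Rbl1 (-0.98 ± 0.14, adjusted p = 7.95e-05) were lower. The E2f7 value is that of the brighter probe, whose intensity was 20.1 to 61.7 with neutrons and 62.2 to 116 with x-rays. The dimmer E2f7 probe had the reverse order against the controls of day 7, -0.16 ± 0.37 with neutrons and 1.77 ± 0.31 with x-rays. It was well above background on 0 of 6 neutron arrays. The 2 neutron doses differed in 4 members on day 7 (28%, 16.3% higher and 11.7% lower with 1 Gy): E2f1 (0.79 ± 0.13, adjusted p = 0.00035) and E2f2 (2.25 ± 0.25, adjusted p = 3.19e-05) were higher with 1 Gy, and E2f3 (-0.95 ± 0.21, adjusted p = 0.00294) and E2f5 (at least 3.67-fold, adjusted p = 0.000347) were lower. The E2f5 values are bounds, since its spot was well above background on none of the 1 Gy neutron arrays. The x-ray doses differed in no member on day 7 (7.81%), where 3 had an unadjusted p under 0.05, among them E2f1 (1.05 ± 0.26 for 4 minus 1 Gy, adjusted p = 0.016).

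On day 1, the x-ray doses differed in 2 members (16.1% of all genes, 12.4% lower with 4 Gy): E2f4 (-0.93 ± 0.18, adjusted p = 0.00317) and Rbl1 (-1.56 ± 0.25, adjusted p = 0.00089) were lower with 4 Gy, with no overlap of the groups. Neutrons and x-rays at 1 Gy differed in none by limma (9.67%), where 3 had an unadjusted p under 0.05 and Rbl1 the lowest (-0.60 ± 0.17 for neutrons minus x-rays, adjusted p = 0.0264). None was called between 1 Gy of neutrons and 4 Gy of x-rays (0.0311%) or between the 2 neutron doses (1.63%), with 2 and 1 at an unadjusted p under 0.05. Missing the threshold does not show that these exposures act alike.

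Partners of the family followed E2f2 in some comparisons and not in others. Tfdp2, a DNA-binding partner of E2f proteins, fell on day 1 with 1 Gy of neutrons (-1.81 ± 0.40), 1 Gy of x-rays (-1.73 ± 0.34) and 4 Gy of x-rays (-2.92 ± 0.34), and rose on day 7 with 1 Gy of neutrons (1.86 ± 0.23). On day 7 it stood at -0.68 ± 0.23 with 4 Gy of x-rays, opposite in sign to E2f2 (adjusted p = 0.0359, not called), and at 0.85 ± 0.24 with 1 Gy of x-rays (adjusted p = 0.0533). In the other 4 comparisons it differed by -0.30 to 0.82 without a call. Rb1, the founding pocket protein, rose on day 7 with 1 Gy of neutrons (2.36 ± 0.17, adjusted p = 5.25e-07) and 1 Gy of x-rays (0.89 ± 0.20, adjusted p = 0.0229). Its day 1 differences were -0.97 to -0.27 and were not called, nor were those of the other 4 comparisons (0.23 to 0.41). Tfdp1, the other partner, was called in no comparison (-0.06 to 0.51).

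The 3 higher exposures are given in 1 order from here on, 1 Gy of neutrons, then x-rays at 1 and at 4 Gy. The shares of all genes called, in that order, were 16.4, 6.48 and 29.3% on day 1 and 36.3, 3.74 and 15.8% on day 7, and the counts of each list stand beside them. Of 17 regulators of the pathway tested, 5, 5 and 6 were called on day 1, of which 3, 4 and 4 rose. Cdkn1a, a p53 target that inhibits the kinases acting on pocket proteins, rose by 4.20 ± 0.37, 3.11 ± 0.28 and 4.15 ± 0.27. Cdkn2b, an inhibitor of the kinases of cyclin D, rose by 1.88, 1.58 and 1.84, and Ccnd1, cyclin D1 itself, by 2.25, 1.55 and 2.37. On day 7, 7, 2 and 4 regulators rose and none fell. Cdkn1a rose then by 1.45 ± 0.27 with 1 Gy of neutrons and 3.07 ± 0.23 with 4 Gy of x-rays, and in the other 5 comparisons it differed by -0.13 to 2.48 without a call. Cdkn2c, another inhibitor of those kinases, rose on day 7 with 1 Gy of neutrons (2.36) and 1 Gy of x-rays (0.92).

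The p53 targets Ccng1 and Mdm2 were followed in every comparison as radiation-responsive genes. Ccng1 rose by 1.32 ± 0.15, 1.10 ± 0.12 and 1.25 ± 0.15 on day 1 with the 3 higher exposures and by 0.90 ± 0.16 on day 7 with 4 Gy of x-rays, and differed by -0.22 to 0.77 without a call elsewhere. Mdm2, the ubiquitin ligase of p53, rose on day 7 with 1 Gy of neutrons (0.80 ± 0.17) and differed by -0.08 to 0.61 elsewhere. Of 11 p53 targets tested, 8, 7 and 7 rose on day 1 and 2, 0 and 5 on day 7, with no fall.

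Known target genes of the family were called lower in most cases on day 1 and higher in most cases on day 7, with exceptions. Of 25 tested S phase genes, 9 fell on day 1 with 1 Gy of neutrons, Cdt1 (-1.55), Mcm4 (-1.20) and Mcm3 (-1.09) by most, all of which take part in licensing replication origins, and the median of the list was -0.57 against -0.08 over all genes. With 1 Gy of x-rays Dnmt1, a DNA methyltransferase, fell (-0.82), and the list had a median of 0.14 (all genes, 0.00). With 4 Gy of x-rays 12 fell and 2 rose, Mcm10 (4.60) and Tk1 (2.69), with a median of -0.72 (all genes, -0.09). On day 7 with 1 Gy of neutrons 4 rose, led by Uhrf1 (2.39), Dnmt1 (2.24) and Rrm2 (2.09), and 6 fell, with a median of -0.32 (all genes, -0.05). X-rays at 1 Gy gave 1 rise, Dnmt1 (1.12), and with 4 Gy of x-rays 11 rose and none fell, with a median of 0.47 (all genes, -0.05). None of the 25 was called with 0.25 Gy of neutrons on any day or with 1 Gy of x-rays on day 3.

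Genes of G2 and M phase, which the DREAM complex silences in resting cells, gave on day 1 2 falls and 1 rise of 15 tested with 1 Gy of neutrons, 3 falls and 5 rises with 1 Gy of x-rays, and 10 falls and 1 rise with 4 Gy of x-rays. Nusap1, a spindle protein, fell in all 3 (-2.55, -2.55 and -4.18), while Cdk1, the mitotic kinase, rose in all 3 (0.90, 1.84 and 0.72). On day 7, 8, 3 and 13 of the 15 rose and none fell, with medians of 1.56, 0.71 and 1.57 (all genes, -0.05, -0.03 and -0.05). Ccnb2, cyclin B2, rose by 2.86, 1.46 and 2.38 there, and by 1.10 on day 3 with 0.25 Gy of neutrons, the only gene of the list called on that day.

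Of the 6 genes of the MuvB core of DREAM and B-Myb, Rbbp4, a histone-binding protein, fell on day 1 with 1 Gy of neutrons (-0.83) and 4 Gy of x-rays (-1.12), rose on day 3 with 1 Gy of x-rays (1.09) and rose on day 7 by 2.49, 1.15 and 1.80 with the 3 higher exposures. Lin9 fell with it on day 1 (-1.32 and -1.61). Lin52 fell with 4 Gy of x-rays on both days (-1.03 and -1.24).

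Red cell markers are given beside E2f2. The mean level of 13 erythroid markers was 1.37 to 2.15 in the day 1 controls and 0.36 to 1.92, 0.40 to 1.65 and -0.36 to 1.09 in the 3 higher exposures of that day. Of the 13, 3, 4 and 7 were called, with 2, 4 and 5 lower, where 10.7, 3.81 and 16.6% of all genes were called lower. The remaining called markers rose, among them Epor with 1 Gy of neutrons (1.58). On day 7 the mean level was 1.20 to 1.90 in the controls and 3.16 to 4.10, 2.02 to 2.93 and 1.95 to 3.01 in the exposed mice, with 10, 6 and 4 of 13 higher and none lower. Slc4a1, the anion exchanger of red cells, rose by 2.87, 1.66 and 1.78. The part of red cells in the E2f2 result was not tested.

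**Figure D5:**
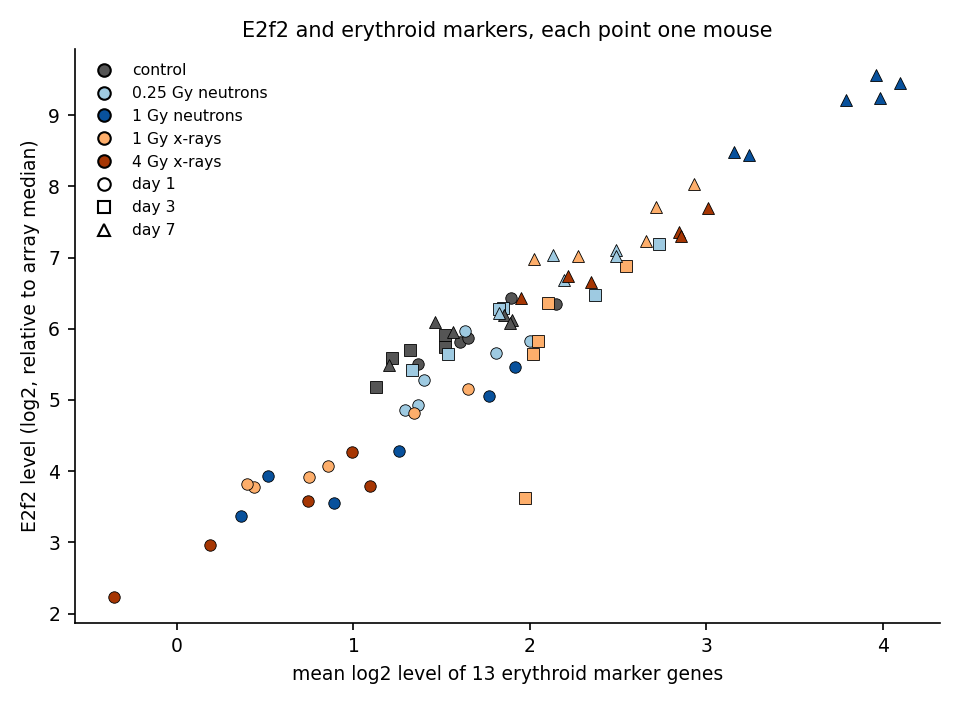
E2f2 level against the mean log2 level of 13 erythroid marker genes in each mouse, coloured by exposure and shaped by day. Mice of day 1 given 4 Gy of x-rays lie at the lower left and mice of day 7 given 1 Gy of neutrons at the upper right, and 1 mouse of day 3 given 1 Gy of x-rays lies off the band, with an E2f2 level of 3.62.

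Over the 13 group means the level of E2f2 and that of the erythroid markers had a Pearson r of 0.97, which is a description, since the means share the arrays and their centring. The same r was 0.85 for E2f7, 0.84 for E2f8, 0.54 for E2f1, 0.35 for Rbl1, 0.25 for E2f4, -0.39 for Rbl2, -0.66 for E2f5, -0.84 for E2f6 and -0.85 for E2f3. Lymphocyte markers were called too. Of 6 B cell markers tested, 6, 4 and 6 fell on day 1 and 5, 3 and 6 on day 7 with the 3 higher exposures. Of 7 T cell markers, 2, 0 and 4 fell on day 1 and 2, 0 and 1 on day 7, and 1 rose on day 1 with 4 Gy of x-rays. Their part in the differences of E2f4, E2f5 and Rbl1 was not tested.

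Other genes followed single members closely over the 13 group means. The gene most like E2f1 was Kctd17 (Pearson r = 0.96), and Cdca8, a mitotic gene, came next (0.95). For E2f2 the named gene with the highest r was Ppp2r1b (0.99), for E2f3 Yipf6 (0.96), for E2f4 Mboat1 (0.95), for E2f5 Tmem263 (0.95) and for E2f6 Sar1a (0.96). Tpra1 was most like E2f7 (0.99), and Rrm2, a subunit of ribonucleotide reductase, most like E2f8 (0.97), followed by the spindle gene Tpx2 (0.96). Cep192, a centrosome gene, was most like Rbl1 (0.98), and Rtn4rl1 most like Rbl2 (0.93).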

How the data were processed

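Array files were deposited as scanner output, per the file headers from Agilent Feature Extraction 12.0.2.2 on a 60-base mouse array, with a background-corrected intensity and flags for each of 44397 spots, not normalized between arrays. The authors also deposited a table of normalized log2 values. In 12 of its 72 columns the values follow the array the column is named for, in 60 another array, which in 21 is of another group. Groups here are those of the scanner files, and which of both carries the right labels was not tested. The table was used only for 0.25 Gy of neutrons on day 1 (5 against 5 mice). Intensities were log2-transformed, spots flagged as non-uniform or as outliers were left out, spots of a probe were averaged and arrays were centred on the median of 19808 detected probes, those with fewer than 25% of spots failing over the 56 arrays of days 1 and 7. The methods' filter on variation and their random variance test served as alternatives. Fits used the 2 groups compared (4 for a change between days) in limma 3.58.1, R 4.3.3, 2-sided. Wherever an adjusted p stands, it is limma's with Benjamini-Hochberg adjustment. The 2-group tests were tried on simulated data, for 1 Gy of neutrons on day 1 and 4 Gy of x-rays on day 7. Planted log2 changes of 1 were recovered in 47 and 59% of cases, and those of 3 in 100 and 99%. Fits with a block, changes between days and comparisons between exposures were not simulated. The members and gene lists were chosen with earlier results of these data known. All 10 members are named in every comparison, from the other lists up to 3 called genes of largest change per list and comparison, and Cdkn1a, Ccng1, Mdm2, Tfdp1, Tfdp2 and Rb1 by value or range throughout. As an exception, all called genes of the E2f6 Polycomb list are named for 1 Gy of neutrons on day 7. Replicate numbers name separate mice, and same-numbered mice deviated with correlations of -0.53 to 0.65, so they were not paired. The number of mice limits the precision. Exon and UTR annotation of mm9 was not used here. Some named genes that the rule would give are not reported here.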

Additional observations from a re-analysis of the deposited data

Results flagged for a closer look

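Single mice stood apart from their group in 11 of 130 combinations of gene and group, by the gap to the nearest mouse as a share of the range, and chance marks about 1 in 20. E2f2 was 5.49 in mouse 6 of the day 7 controls, against 5.96 to 6.19 in the others. E2f4 was 0.19 in mouse 3 after 4 Gy of x-rays on day 7, the others lying at -0.70 to -0.43. E2f6 was -0.41 in mouse 5 of the day 3 controls (others 0.19 to 0.27) and -0.0015 in mouse 4 after 1 Gy of neutrons on day 7 (others -0.58 to -0.38). Mouse 5 after 0.25 Gy of neutrons on day 1 stood apart in 3 genes, with E2f6 at 0.85 (others -0.01 to 0.18), E2f8 at -2.91 (others -2.27 to -1.89) and Rbl1 at -2.76 (others -0.95 to -0.30). The hepatocyte marker level of this mouse was 9.11, against 1.51 to 6.48 in the others of its group. The part of that level in these 3 genes was not tested. E2f7 was -2.06 in mouse 2 of the day 7 controls (others -3.38 to -3.02). E2f8 was 0.49 in mouse 5 after 1 Gy of x-rays on day 7 (others -1.62 to -1.21). Rbl1 was -0.87 in mouse 4 of the day 1 controls (others -0.37 to -0.16) and -0.83 in mouse 2 after 1 Gy of x-rays on day 7 (others -0.49 to -0.43).

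The difference from the controls changed between day 1 and day 7, by a limma test of that change, in 8 of 40 pairs of gene and exposure. For E2f2 the change was 1.40 after 0.25 Gy of neutrons, 4.79 after 1 Gy of neutrons, 3.14 after 1 Gy of x-rays and 3.67 after 4 Gy of x-rays. E2f3 changed by -1.15 after 1 Gy of neutrons. After 4 Gy of x-rays E2f4 changed by 1.57, E2f8 by 1.03 and Rbl1 by 2.09.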

How the results depend on the processing

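E2f1 with 4 Gy of x-rays on day 7 and E2f2 with 4 Gy of x-rays on day 1 kept their call under each alternative run, with each mouse left out in turn included. Among single genes, apart from fits that leave out a mouse, 1277 values kept sign and call, 44 lost a call, 8 gained one, and 5 that were called before, after or both turned sign. A further 105 that were not called on either side changed sign, 26 of them with spike-in centring and 23 with normexp.

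Normexp background correction with an offset of 50 gave the fewest calls, 0 on day 1 with 1 Gy of neutrons (2 as reported) and with 1 Gy of x-rays (1), 1 with 4 Gy of x-rays (3), and on day 7 0 with 1 Gy of neutrons (5), 0 with 1 Gy of x-rays (1) and 1 with 4 Gy of x-rays (3). It left 3 of the 8 changes between days and 1 of the 13 calls between exposures. Under it E2f2 lost 5 of its 6 calls, all but day 1 with 4 Gy of x-rays, and E2f5 on day 7 with 1 Gy of neutrons turned to 0.96. The cause was not tested.

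Spike-in centring gave 1 call on day 1 with 1 Gy of neutrons and 0 on day 7 with 1 Gy of x-rays. It put the median of all genes at -2.15 (1 Gy of neutrons, day 7), -1.15 (0.25 Gy of neutrons, day 7), -1.06 (1 Gy of x-rays, day 7), -0.61 (1 Gy of x-rays, day 3) and 0.20 (1 Gy of neutrons, day 1). In the first of these 0.337% of all calls were higher, against 50.9% as reported and 36.4% with quantile normalization, and E2f1 (-1.71, not called), E2f4 (-1.97), E2f7 (-0.73), E2f8 (-1.17) and Rbl2 (-2.06) turned sign, with 0 members called higher and 6 lower. The share of higher calls was 77.5% against 34.5% on day 1 with 1 Gy of neutrons, 69.9% against 41.2% with 1 Gy of x-rays, and 0.686% against 70.5% on day 7 with 1 Gy of x-rays.

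On day 1 with 1 Gy of neutrons, 1 member was called over arrays of like hepatocyte level, with dim spots missing, with no detection filter and with the variation filter, and 0 in the fits with a scan date block or within 1 scan date. On day 7 with 1 Gy of neutrons a scan date block left 1. Replicate numbers do not pair the mice, and the replicate block gave 0, 2, 0, 1, 3 and 3 calls for 1 Gy of neutrons on days 1 and 7, 1 Gy of x-rays on days 1 and 7 and 4 Gy of x-rays on days 1 and 7. Between controls there were 0 calls with no detection filter, normexp and the variation filter, and 14 of 30 with spike-in centring.

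Leaving out 1 mouse in turn gave 0 to 1 calls for 0.25 Gy of neutrons on day 7, 0 to 2 and 4 to 7 for 1 Gy of neutrons on days 1 and 7, 1 to 1 and 1 to 1 for 1 Gy of x-rays, 3 to 3 and 2 to 4 for 4 Gy of x-rays, 6 to 9 changes between days, 11 to 16 calls between exposures, 0 to 1 between controls and 0 elsewhere. Dim spots limit E2f5, E2f7 and E2f8 on day 7 with 1 Gy of neutrons. The fits within 1 scan date, over arrays of like hepatocyte level and with the slide as a random block, the mice left out of the changes between days and of the comparisons between exposures, and the alternatives between controls were chosen after seeing the data.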
